A study of Mus musculus with 12 samples.

Results

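The effect of sciatic nerve axotomy (SNA) on the RNA of sciatic dorsal root ganglia (DRG) was examined over both housings at once. The 6 SNA samples were compared with the 6 Sham samples, with housing as an additive term, so that all 12 samples of the series were used. Wild-type C57BL/6 mice aged 5 to 8 weeks lived for 10 days in standard housing (SH) or in an enriched environment (EE). They then underwent either a complete transection of the sciatic nerve or a sham operation, in which the nerve was exposed and left whole, and ganglia were taken 24 h later. There were thus 4 groups of 3 samples, SH Sham and SH SNA in standard housing and EE Sham and EE SNA in enriched housing, and every sample pooled the ganglia of 2 mice. The mice carried no transgene. What all groups share is the anaesthesia, the exposure of the nerve and, per the study's methods, the analgesics buprenorphine and carprofen given around surgery. Whole ganglia were sequenced, so that sensory neurons, satellite and Schwann cells, macrophages and vessels all contribute, and neurons of uncut nerves lie beside axotomized ones.

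Sensory neurons of the DRG send one axon branch to the periphery and the other into the spinal cord. When the peripheral branch is cut, signals travel back to the cell body and the neuron turns on transcription factors, cytoskeletal proteins and peptides that accompany regrowth, whereas genes of impulse conduction and synaptic transmission are turned down. Such a peripheral lesion is known to condition the neuron, and its central branch then grows better after a later spinal cord injury.

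Between 11343579 and 22871460 reads per sample lay on genes, and EE SNA replicate 2 was the deepest. Of the 44345 gene names in the table, 16238 passed the filter on low counts and were tested. Levels are given as CPM, the counts scaled to the same normalised library total,, which are not divided by gene length, and are therefore not compared between genes. Changes are log2 fold changes of SNA over Sham with their standard error (SE). A gene was called at an adjusted P-value under 0.05 by edgeR's quasi-likelihood test over all genes tested. SH SNA replicate 2 stood apart with 1613 CPM on 14 skeletal muscle markers, against 118 to 415 CPM in the other 11 samples, and EE SNA replicate 3 with 837 CPM on neutrophil markers, against 85.9 to 364 CPM in the others. The study takes EE Sham from an earlier dataset, while the labels name neither a run date nor a batch. Should EE Sham come from another run, that run and the injury effect within EE cannot be told apart, and only the values within SH would be free of it.

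Injury changed a large part of the transcriptome, and by small amounts for most genes. After SNA, 3638 genes were called (22.4% of those tested), 1857 higher (11.4%) and 1781 lower (11.0%). The median change was 0.31 among the genes called higher and −0.29 among those called lower, on the log2 scale. A log2 fold change of at least 1 in either direction was reached by 142 called genes (0.874%), of which 120 were higher and 22 lower. Large changes were therefore mostly rises, while small changes were split about evenly. In 1798 genes (11.1%) the 6 SNA samples did not overlap the 6 Sham samples, with 889 higher and 909 lower, and 1765 of these genes were called. At an unadjusted P-value of 0.05, which the study used, 5639 genes (34.7%) passed.

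The program ran in the same direction in mice of both housings. Within SH alone, 1823 genes were called (11.2%), 984 higher (6.06%) and 839 lower (5.17%), and within EE alone 785 (4.83%), 407 higher (2.51%) and 378 lower (2.33%). With 3 samples a group, the counts leaned on single samples: 1207 genes were called within SH without SH SNA replicate 1, and 361, 376, 481 and 497 within EE without EE Sham replicate 3, EE SNA replicate 1, EE Sham replicate 1 and EE SNA replicate 3. The comparisons within SH and within EE share no sample. Samples with the same replicate number in SH and EE did deviate together slightly (r across genes of 0.0573 to 0.331 in 6 pairs), and the part of this in the agreement was not tested. Of the 1823 genes called within SH, 1809 (99.2%) had the same sign within EE, and of the 785 called within EE, 781 (99.5%) had the same sign within SH. By comparison, 74.1% of all tested genes had the same sign in both. The genes called in each housing separately numbered 681, which is 37.4% of the SH list and 86.8% of the EE list, and all 681 had the same direction. All 3638 genes called over both housings also had the same sign in each, but pooling favours such genes, so that this count is not a separate result. In 1809 of them (49.7%) neither housing alone gave a call. Across all tested genes the log2 fold changes within SH and within EE had a Pearson r of 0.642 and a Spearman coefficient of 0.626, a description across genes that share libraries and are not replicates.

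**Figure D1:**
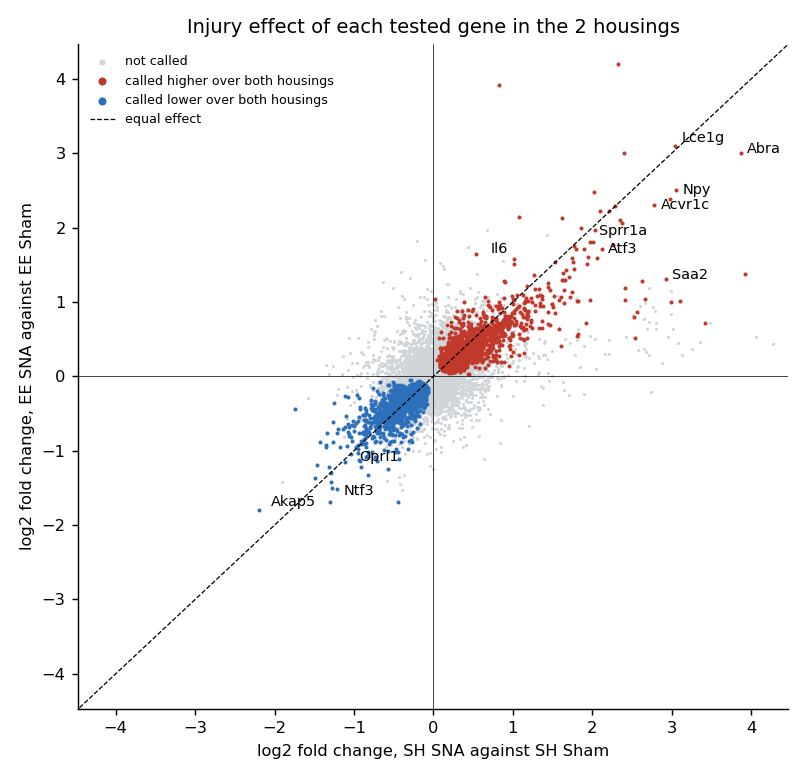
The log2 fold change of SNA over Sham within SH (horizontal axis) is plotted against that within EE (vertical axis) for each of the 16238 tested genes, with genes called over both housings in red (higher) or blue (lower) and all others in grey. The coloured points lie at the upper right and the lower left, and *Abra*, *Npy* and *Atf3* lie to the right of the dashed line of equal effect.

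*Atf3*, a stress-induced transcription factor that marks axotomized sensory neurons, served as a check of the labels. It lies on chromosome 1 of GRCm38 from 191170296 to 191218039 (ENSMUSG00000026628). Its level was 109.9 CPM in the lowest Sham sample, with a median of 136 CPM and a highest value of 168 CPM, and 454, 500.4 and 549 CPM in the lowest, median and highest SNA sample. Every SNA sample was above every Sham sample, as the labels would have it. The log2 fold change was 1.92 (SE 0.082, adjusted P = 9.42e-11), with 2.12 within SH and 1.71 within EE.

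Ranked by P-value, the first 10 genes were *Stmn4*, *Atf3*, *Procr*, *Gadd45a*, *E230016M11Rik*, *Rnf122*, *Tubb6*, *Flrt3*, *Adcyap1* and *Plaur*. All 10 were higher after SNA, and in each the SNA and Sham samples did not overlap. *Stmn4*, a stathmin that binds tubulin, went from 24.2 to 28.9 CPM in Sham (median 27.7) to 65.3 to 77.8 CPM after SNA (median 67.8), with a log2 fold change of 1.36 (SE 0.058). *Flrt3*, a leucine-rich transmembrane protein of growing axons, had 37.1 to 55.0 CPM in Sham (median 42.0) and 131 to 171 CPM after SNA (median 155), a change of 1.77 (SE 0.084). *Procr* encodes the endothelial protein C receptor, and rose from a median of 7.90 CPM (6.98 to 9.79) to 29.7 CPM (25.8 to 35.3), a change of 1.90 (SE 0.084). *Plaur*, the receptor of urokinase, rose from 14.8 CPM (13.0 to 16.6) to 35.3 CPM (32.9 to 38.5). *Gadd45a*, a stress sensor linked to growth arrest and DNA demethylation, rose from 85.2 CPM (64.9 to 93.5) to 266 CPM (234 to 292). The lncRNA *E230016M11Rik*, whose exons overlap those of *Gadd45a* on the other strand, rose from 25.7 CPM (22.3 to 30.0) to 78.0 CPM (65.7 to 82.5). The strand setting of the counting is not given, so that reads in the shared 19% of the *Gadd45a* exons could belong to either gene.

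Jun pairs with FOS or ATF proteins in AP-1 dimers, and TGANTCA covers a known AP-1 site. Because *Atf3* and *Jun* rose, the stretch just before the start of leading genes was searched for TGANTCA. The 250 bases upstream of the start were taken from RefSeq windows on GRCm38.p6 and searched for TGANTCA, which reads the same on both strands, and for TGACGTCA, the CRE site, which does too and does not hold the first motif. Of the 10 genes with the smallest P-values 7 had a window, and 3 of these held TGANTCA (*Procr*, *Plaur*, *E230016M11Rik*) and 0 held TGACGTCA. Among all 32851 windows, 6.75% held TGANTCA and 1.55% held TGACGTCA, and among the 11122 tested genes with a window 5.59% and 2.94% did. Since only these of the 16238 tested genes had a window, no gene groups were compared. The 3 sequences with a match are shown with *Atf3* itself, whose window held no exact match to either motif. *Sprr1a*, which is not among these 10 genes, was added by choice and held 2 matches to TGANTCA. The windows of *Gadd45a*, *Flrt3* and *Adcyap1* held neither motif and are not shown. Variants of the 2 motifs were not searched. Windows end at the start RefSeq gives, which for *Atf3* lies inside the gene span given above, so the stretch before the outer end of that span was not searched. The sequences run 5′ to 3′ toward the gene, with matches to TGANTCA in capitals, which describe letters and not binding.
Sprr1a, chr3:92485882-92486131, minus strand: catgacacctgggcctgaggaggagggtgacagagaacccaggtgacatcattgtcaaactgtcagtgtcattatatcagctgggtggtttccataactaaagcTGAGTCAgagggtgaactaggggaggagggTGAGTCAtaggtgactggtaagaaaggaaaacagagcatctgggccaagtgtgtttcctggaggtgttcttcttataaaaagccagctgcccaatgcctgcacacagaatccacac
Procr, chr2:155750967-155751216, plus strand: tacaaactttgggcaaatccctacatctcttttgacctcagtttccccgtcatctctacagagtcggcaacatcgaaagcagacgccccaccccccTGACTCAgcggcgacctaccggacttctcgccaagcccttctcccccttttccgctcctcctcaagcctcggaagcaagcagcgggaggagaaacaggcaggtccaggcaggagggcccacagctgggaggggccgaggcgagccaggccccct
Plaur, chr7:24462233-24462482, plus strand: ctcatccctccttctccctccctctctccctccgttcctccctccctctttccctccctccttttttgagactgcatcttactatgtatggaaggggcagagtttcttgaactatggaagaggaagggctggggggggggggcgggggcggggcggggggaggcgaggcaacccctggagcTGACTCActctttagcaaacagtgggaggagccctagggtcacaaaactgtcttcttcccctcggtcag
E230016M11Rik, chr6:67036349-67036598, plus strand: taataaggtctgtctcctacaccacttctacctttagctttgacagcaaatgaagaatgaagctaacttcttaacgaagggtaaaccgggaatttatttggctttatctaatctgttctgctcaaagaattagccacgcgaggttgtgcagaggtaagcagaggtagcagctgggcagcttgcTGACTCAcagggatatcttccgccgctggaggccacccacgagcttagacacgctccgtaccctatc
Atf3, chr1:191183334-191183583, minus strand: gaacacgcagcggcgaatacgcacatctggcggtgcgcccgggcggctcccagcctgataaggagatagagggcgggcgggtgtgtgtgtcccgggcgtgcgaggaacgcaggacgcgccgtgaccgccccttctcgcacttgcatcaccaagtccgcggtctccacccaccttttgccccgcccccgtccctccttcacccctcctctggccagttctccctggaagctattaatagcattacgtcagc
The matches began 146 and 116 bases before the start of *Sprr1a*, 154 before *Procr*, 69 before *Plaur* and 67 before *E230016M11Rik*.

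Genes with the largest rises, among called genes that averaged 1 CPM or more and whose SNA and Sham samples did not overlap in either housing, were often low in Sham ganglia. The filter on low counts could be met by SNA samples alone, so that a low level in Sham is partly set by the selection. With at least 10 counts required in every sample, 69 called genes reached a log2 fold change of at least 1 in either direction, against 142. *Abra*, an actin-binding protein known from striated muscle, rose most, from 0 to 0.379 CPM in Sham (median 0.166) to 0.875 to 2.62 CPM after SNA (median 1.78). Its log2 fold change was 3.38 (SE 0.43, adjusted P = 1.68e-05) and rests on 14 reads over the 6 Sham samples and 158 over the 6 SNA samples. Without SH SNA replicate 2 and EE SNA replicate 3 it was 3.08, and whether muscle RNA had a part in it was not tested. *Lce1g*, of the late cornified envelope family of the epidermis, had 0 to 0.455 CPM in Sham and 1.68 to 2.79 CPM after SNA, from 21 and 182 reads, a change of 3.07 (SE 0.32). Members of its family are near identical, and reads that aligned to several genes were not counted, so that its level and the member are uncertain. The epidermis markers summed to 21.2 to 27.9 CPM in Sham and 25.4 to 31.7 CPM after SNA, with *Krt5*, *Krt15* and *Flg2* under 0.5 CPM in every sample. *Acvr1c*, the type I receptor ALK7 for activin and Nodal ligands, went from 0.152 to 0.650 CPM to 1.44 to 3.21 CPM, and *Cd207*, which encodes langerin, from 0.235 to 0.602 CPM to 1.83 to 2.23 CPM.

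*Areg*, the EGF receptor ligand amphiregulin, rose from 1.55 CPM (1.11 to 2.08) to 6.50 CPM (5.18 to 12.7), a change of 2.23 (SE 0.21), with the highest value in EE SNA replicate 3 and a change of 1.99 without that sample and SH SNA replicate 2. The acute phase genes *Saa1* (2.23, SE 0.25) and *Saa2* (2.10, SE 0.42) rose as well. Their sequences are near identical, and reads that aligned to several genes were not counted, so that their levels are uncertain. *Chrna5*, a nicotinic receptor subunit, changed by 1.92 (SE 0.20) and *Cckbr*, a cholecystokinin receptor, by 1.84 (SE 0.15). *Sprr1a*, a small proline-rich protein of regenerating axons, had 6.00 to 13.5 CPM in Sham (median 8.71) and 18.1 to 53.4 CPM after SNA (median 33.4), a change of 1.92 (SE 0.20, adjusted P = 1.68e-06).

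**Figure D2:**
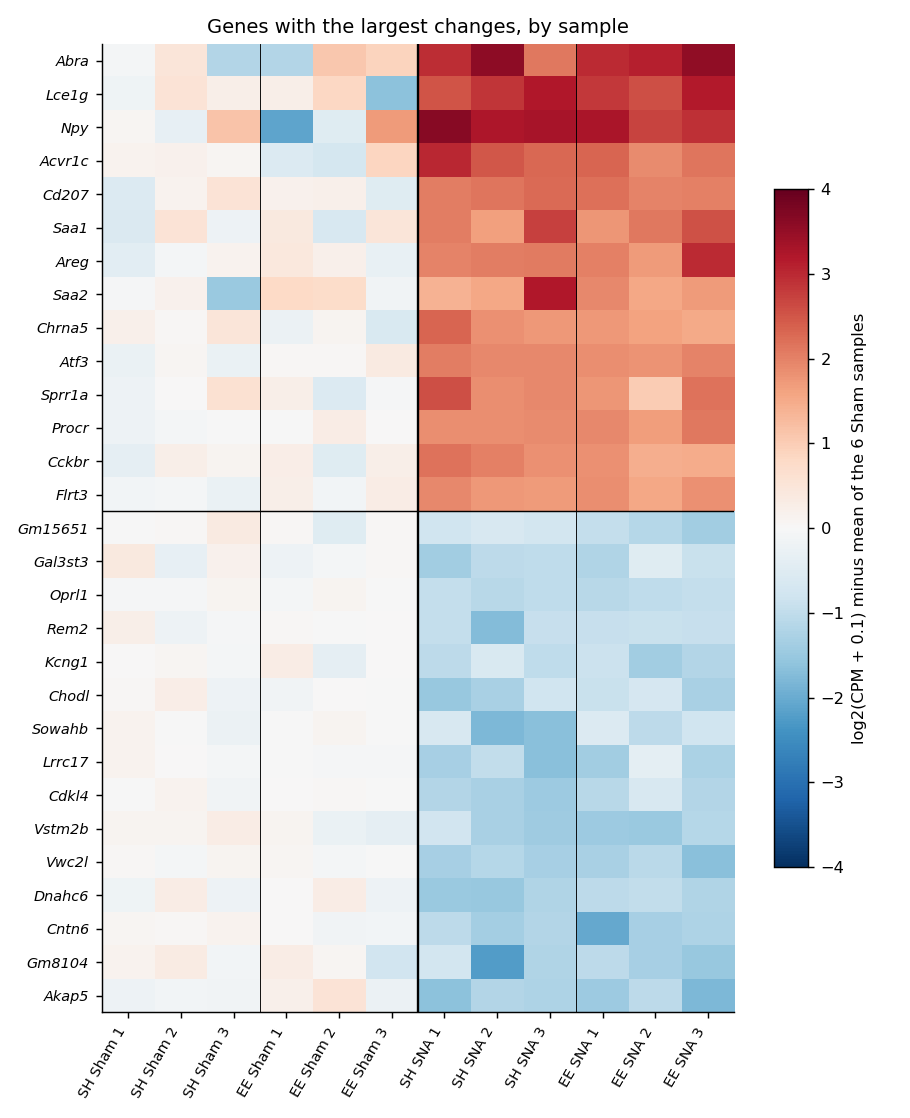
For 14 genes with the largest rises and the 15 with the largest falls (rows), colour gives log2(CPM + 0.1) in each of the 12 samples (columns) minus the mean of the 6 Sham samples. The 6 SNA columns are red in the upper block and blue in the lower block in both housings, and the colours of the lower block are paler.

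Falls were smaller. Of the 15 largest, *Akap5*, an anchoring protein that gathers kinases and phosphatases at the membrane, fell by 1.50 on the log2 scale (SE 0.22), from 1.38 to 2.43 CPM in Sham (median 1.49) to 0.403 to 0.740 CPM after SNA (median 0.585). *Cntn6*, a neural adhesion molecule of the contactin family, had 5.62 to 6.82 CPM in Sham (median 6.34) and 1.42 to 2.98 CPM after SNA (median 2.51), a change of −1.35 (SE 0.12, adjusted P = 4.84e-07). *Vwc2l*, which encodes a secreted protein related to the BMP antagonist brorin, went from 18.0 CPM (16.8 to 19.1) to 7.17 CPM (5.56 to 8.35), a change of −1.30 (SE 0.087, adjusted P = 1.45e-08). In all 3 genes no SNA sample reached a Sham sample. *Oprl1*, the nociceptin receptor, had 20.2 to 22.9 CPM in Sham (median 20.7) and 9.79 to 11.0 CPM after SNA (median 10.5), and its change of −1.03 (SE 0.064) was −1.03 within SH and −1.04 within EE. *Kcng1*, a silent potassium channel subunit, changed by −1.06 (SE 0.15), and *Rem2*, a GTPase that restrains calcium channels, by −1.06 (SE 0.13). *Vstm2b* (−1.26), *Dnahc6* (−1.31), *Cdkl4* (−1.14), *Lrrc17* (−1.13), *Sowahb* (−1.12), *Chodl* (−1.07), *Gal3st3* (−1.03) and the non-coding or predicted genes *Gm8104* (−1.43) and *Gm15651* (−1.02) complete the set. In *Gm8104* alone of the 15, the 6 SNA samples overlapped the 6 Sham samples over both housings.

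Transcription factors of the injury response rose. Of 21 tested, 14 were called higher and 0 lower, with a median log2 fold change of 0.22 over the list against 0.0071 over all genes tested, and no other list test was made. *Jun*, the partner of *Atf3* in AP-1, had 127 to 141 CPM in Sham (median 137) and 205 to 226 CPM after SNA (median 220.2), a change of 0.68 (SE 0.042, adjusted P = 5.08e-09). *Sox11*, a SOX factor of developing and regrowing neurons, had 3.94 to 6.01 CPM in Sham (median 5.48) and 10.3 to 16.5 CPM after SNA (median 12.7), a change of 1.33 (SE 0.13). In both genes the samples of the 2 surgeries were apart in each housing. *Klf6*, a Krüppel-like factor that promotes axon growth, changed by 0.86 (SE 0.060), *Smad1*, the effector of BMP signals, by 0.64 (SE 0.045), *Crem* by 0.64 (SE 0.078), *Myc* by 0.59 (SE 0.073) and *Atf4* by 0.32 (SE 0.051). Among the 7 that were not called were *Junb* (0.076, adjusted P = 0.586), *Hif1a* (0.10, adjusted P = 0.177) and *Cebpd* (0.32, adjusted P = 0.0610).

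Of 36 effectors of growth cones and regeneration, 20 were called higher and 0 lower (median 0.28). Besides *Stmn4*, *Flrt3*, *Plaur* and *Sprr1a*, the integrin *Itga7* of the laminin receptor rose from 216 CPM (194 to 224) to 374 CPM (343 to 410.0), a change of 0.82 (SE 0.050). *Tnfrsf12a*, the receptor Fn14 that drives neurite growth, rose from 11.6 CPM (9.97 to 14.0) to 27.3 CPM (25.1 to 30.9), a change of 1.22 (SE 0.083). *Hspb1*, the small heat shock protein HSP27, changed by 0.69 (SE 0.048). *Tubb6*, a beta-tubulin of growing cells, changed by 1.09 (SE 0.049), whereas the abundant neuronal *Tubb3* changed by 0.046 (adjusted P = 0.432) and *Tuba1a* by 0.10 (adjusted P = 0.0832). Tubulin genes resemble each other, and reads that aligned to several were not counted. *Stmn2*, an abundant stathmin of axons, changed by 0.18 (SE 0.037), from 2116 to 2235 CPM in Sham to 2370.5 to 2552 CPM after SNA.

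Several neuropeptides rose. Of 15 tested, 6 were called higher and 0 lower (median 0.29). The median was 0.14 without SH Sham replicate 1 and 0.15 without SH SNA replicate 1, and 0.37 within SH and 0.12 within EE. *Npy*, neuropeptide Y, had 0.180 to 3.82 CPM in Sham (median 1.02) and 7.70 to 15.0 CPM after SNA (median 11.3), a change of 2.80 (SE 0.32, adjusted P = 5.64e-06). *Npy* is also a product of sympathetic neurons, whose markers summed to 65.8 to 95.0 CPM in Sham and 65.7 to 81.3 CPM after SNA, with *Gata3* under 0.5 CPM in every sample. *Gal*, galanin, had 17.8 to 26.1 CPM in Sham (median 20.8) and 34.1 to 57.1 CPM after SNA (median 44.7), a change of 1.09 (SE 0.11). *Adcyap1*, which encodes PACAP, went from 168 to 203 CPM (median 173) to 358 to 441 CPM (median 397), a change of 1.14 (SE 0.059, adjusted P = 5.53e-10). *Nts*, neurotensin, changed by 1.17 (SE 0.14), *Bdnf* by 0.34 (SE 0.049) and *Grp* by 1.03 (SE 0.35, adjusted P = 0.0436). *Grp* was called in 4 of the 12 fits that each left out 1 sample. *Calca* and *Tac1*, the CGRP and substance P genes of nociceptors, changed by 0.087 (adjusted P = 0.199) and −0.0096 (adjusted P = 0.914).

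**Figure D3:**
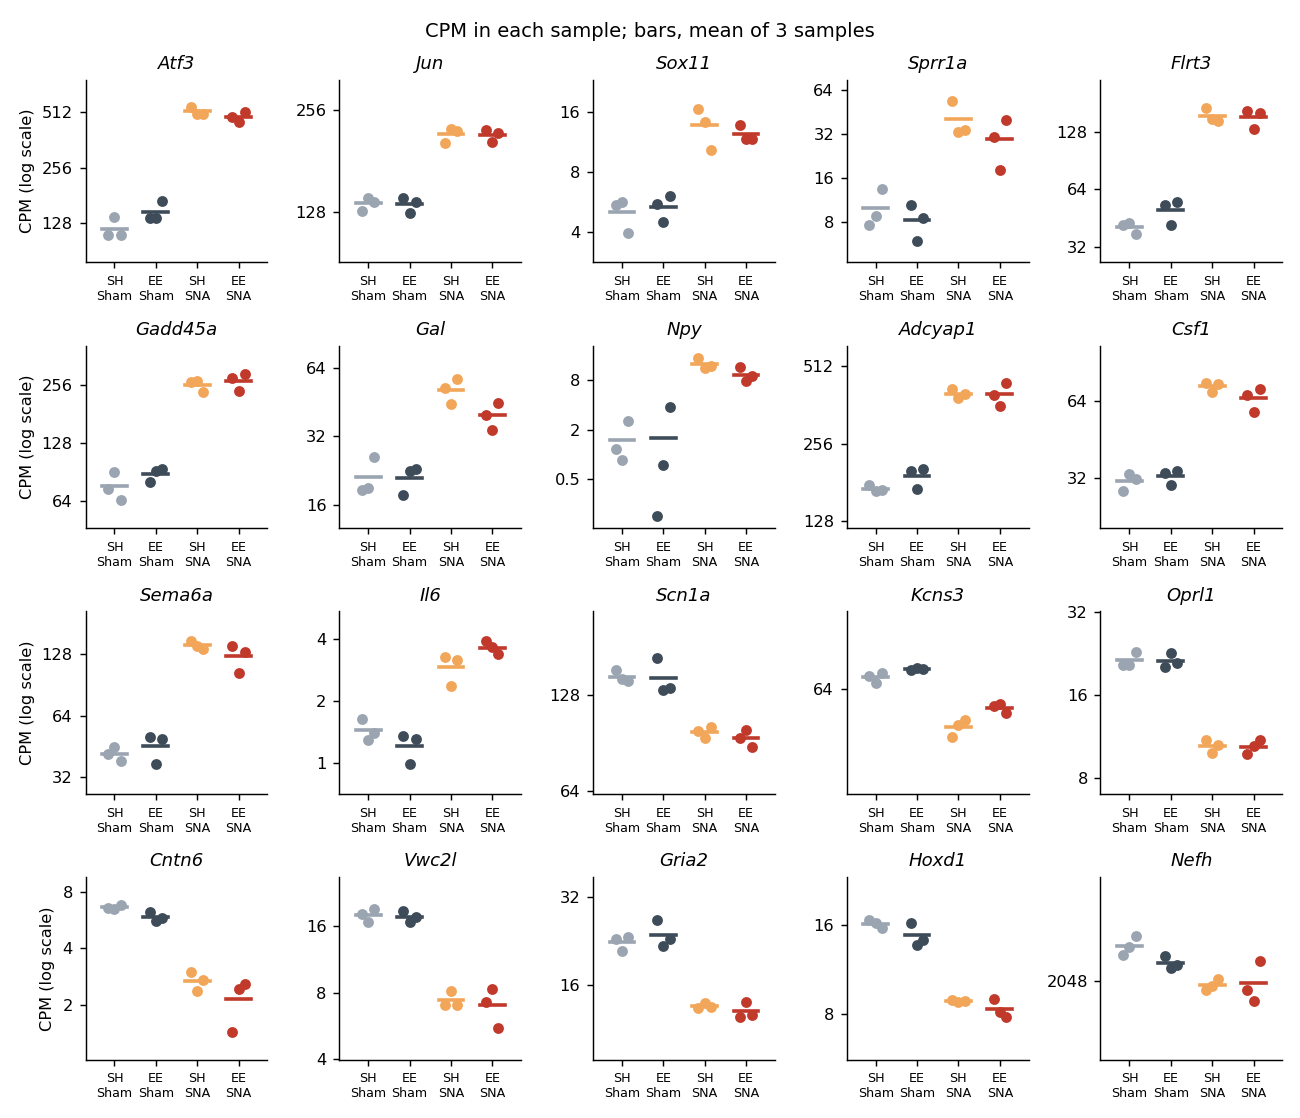
CPM on a log2 axis is shown for 20 genes, with a point per sample, a bar at the mean of the 3 samples of a group, and groups ordered by surgery, Sham first, and SH before EE within each. The SNA samples lie above the Sham samples from *Atf3* to *Il6* and below them from *Scn1a* to *Hoxd1*, while in *Nefh* EE SNA overlaps EE Sham.

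Genes of stress and cell death moved both ways. Of 24 tested, 6 were called higher and 5 lower (median −0.012). Among the higher were *Gadd45a*, its relative *Gadd45g* (0.69, SE 0.082) and the cell cycle inhibitor p21 gene *Cdkn1a* (0.79, SE 0.074). Lower were the survival gene *Bcl2* (−0.35, SE 0.039), with 60.7 to 66.0 CPM in Sham and 47.7 to 51.7 CPM after SNA, and *Nmnat2*, the short-lived axon survival enzyme (−0.17, SE 0.043). The JNK gene *Mapk10* (−0.19, SE 0.046) and the kinase gene *Map3k13*, which encodes LZK (−0.38, SE 0.095), were lower too.

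Genes of the integrated and endoplasmic reticulum stress response rose, 17 of 23 tested, with 1 lower (median 0.26). *Chac1*, a glutathione-degrading target of ATF4 and CHOP, rose from 9.61 CPM (7.51 to 11.0) to 19.3 CPM (15.7 to 20.3), a change of 0.98 (SE 0.094). *Ppp1r15a*, which encodes the phosphatase subunit GADD34, rose from 44.2 CPM (42.4 to 58.8) to 72.8 CPM (70.9 to 86.3), a change of 0.67 (SE 0.062). *Ddit3*, the CHOP gene, changed by 0.39 (SE 0.049), *Sesn2* by 0.72 (SE 0.11), *Trib3* by 0.58 (SE 0.097), *Xbp1* by 0.31 (SE 0.046) and the chaperone gene *Hspa5* by 0.30 (SE 0.046). Not called were *Atf6* (0.074, adjusted P = 0.292), *Pdia4* (0.082, adjusted P = 0.294) and *Hsp90b1* (0.032, adjusted P = 0.736).

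Cytokine signals rose in part. Of 18 genes of the interleukin 6 family and STAT3 signalling, 8 were called higher and 0 lower (median 0.20). *Il6* had 0.987 to 1.64 CPM in Sham (median 1.33) and 2.37 to 3.92 CPM after SNA (median 3.34), a change of 1.29 (SE 0.16, adjusted P = 1.44e-05), with 1.02 within SH and 1.58 within EE. The STAT3 targets *Socs3* (0.48, SE 0.068), *Pim1* (0.59, SE 0.094) and *Bcl3* (0.38, SE 0.069) rose, while the receptor genes *Il6st* (0.11, adjusted P = 0.236) and *Lifr* (−0.10, adjusted P = 0.222) were not called. Of 15 chemokines and genes of the CSF1 axis, 4 were higher and 0 lower (median 0.25). These were 26.7% of those tested, against 22.4% called and 11.4% called higher over all genes. *Csf1*, the macrophage and microglia growth factor that axotomized sensory neurons make, went from 28.5 to 34.0 CPM (median 32.3) to 57.9 to 75.7 CPM (median 70.6), a change of 1.13 (SE 0.064, adjusted P = 2.19e-09). *Ccl12* changed by 0.90 (SE 0.21), *Ccl7* by 0.59 (SE 0.19), and the receptor gene *Csf1r* by 0.25 (SE 0.081). *Ccl7* and *Csf1r* were each called in 4 of the 12 fits without 1 sample, and the list had 2 members higher without SH Sham replicate 1, EE Sham replicate 1, EE Sham replicate 3 or EE SNA replicate 3.

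Neurotrophic factor receptors and ligands moved both ways. Of 12 tested genes, 4 were higher and 3 lower (median −0.036). *Gfra1*, the GDNF co-receptor, rose from 203 CPM (187 to 212) to 367 CPM (324 to 387), a change of 0.84 (SE 0.048, adjusted P = 2.19e-09), and *Gfra3*, the artemin co-receptor, changed by 0.42 (SE 0.056). *Gfra2*, the neurturin co-receptor, fell from 121 CPM (108 to 136) to 100.1 CPM (74.7 to 107), a change of −0.38 (SE 0.085). The peptide gene *Vgf* rose (0.52, SE 0.064), and the ligand gene *Ntf3* fell by 1.38 (SE 0.33) from a low level, 0.574 to 1.29 CPM in Sham and 0.0765 to 0.557 CPM after SNA. *Ngfr*, the low-affinity neurotrophin receptor, changed by −0.19 (SE 0.055), and *Ntrk2* was not called (−0.10, adjusted P = 0.145).

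Many ion channel genes fell. Of 43 potassium and HCN channel genes, 27 were called lower and 0 higher (median −0.26), and of 13 sodium channel genes 6 were lower and 0 higher (median −0.24). *Scn1a*, the Nav1.1 gene of myelinated and mechanosensitive neurons, had 132 to 167 CPM in Sham (median 142) and 87.4 to 101 CPM after SNA (median 96.1), a change of −0.60 (SE 0.056, adjusted P = 5.97e-07). *Scn8a*, the Nav1.6 gene, changed by −0.37 (SE 0.059), and the beta subunits *Scn4b* and *Scn2b* by −0.31 (SE 0.037) and −0.25 (SE 0.046). The nociceptor channels *Scn10a* (−0.24, SE 0.074) and *Scn9a* (−0.23, SE 0.071) were called, but in only 8 and 7 of the 12 fits without 1 sample, and *Scn11a* was not (−0.18, adjusted P = 0.108). *Scn7a*, which satellite and Schwann cells also express, changed by 0.0034 (adjusted P = 0.978).

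Of the potassium channel genes, *Kcns3*, a modulatory subunit, had 66.0 to 72.1 CPM in Sham (median 70.8) and 48.2 to 58.4 CPM after SNA (median 54.2), a change of −0.38 (SE 0.040). The groups of this gene were narrow and apart. *Kcns1*, another modulatory subunit, went from 47.5 CPM (44.2 to 50.4) to 33.9 CPM (31.0 to 36.7), a change of −0.49 (SE 0.053). *Kcnip1*, an auxiliary subunit of A-type channels, changed by −0.49 (SE 0.050), the A-type channel *Kcnd1* by −0.36 (SE 0.052) and the pacemaker channel *Hcn2* by −0.29 (SE 0.044). *Kcna1*, of the axonal Kv1 channels, was not called (−0.081, adjusted P = 0.165). Of 18 calcium channel genes, 7 were lower and 1 higher (median −0.10). The one that rose, *Cacna2d1*, is the subunit bound by gabapentin, with 270.4 to 354 CPM in Sham (median 294) and 353 to 401 CPM after SNA (median 379), a change of 0.34 (SE 0.059). *Cacng5* fell by 0.62 (SE 0.066) and *Cacng2* by 0.41 (SE 0.077). Without SH Sham replicate 3 or EE Sham replicate 1, 4 calcium channel genes were lower. The median of this list was −0.064, −0.066 and −0.063 without SH SNA replicate 1, EE Sham replicate 1 and EE SNA replicate 3.

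Transducers of heat, touch, acid and ATP followed the channels less uniformly. Of 24 tested, 8 were called lower and 3 higher (median −0.15). *Asic1*, an acid-sensing channel, fell by 0.52 (SE 0.062), the cold receptor *Trpm8* by 0.43 (SE 0.067) and the ATP receptor *P2ry1* by 0.40 (SE 0.062). *Trpv2* rose by 0.35 (SE 0.039), from 71.6 to 79.6 CPM to 90.8 to 98.1 CPM, and *P2rx5* by 0.48 (SE 0.073). The heat receptor *Trpv1* (−0.013, adjusted P = 0.892), the touch channel *Piezo2* (−0.038, adjusted P = 0.693) and the ATP-gated channel *P2rx3* (0.10, adjusted P = 0.304) were not called. Of 15 itch receptors and peptides, 5 were lower and 0 higher (median −0.23, or −0.14 without SH Sham replicate 3), 33.3% called against 22.4% of all genes. *Ptgir*, the prostacyclin receptor, had 70.8 to 81.8 CPM in Sham and 49.4 to 53.9 CPM after SNA (−0.53, SE 0.043). *Mrgprd*, a receptor of non-peptidergic nociceptors, had 113 to 131 CPM and 72.9 to 106 CPM (−0.47, SE 0.073).

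Inhibitory and peptide receptors fell in part. Of 20 inhibitory and peptide receptors, 10 were lower and 3 higher (median −0.33). Besides *Oprl1*, the delta opioid receptor *Oprd1* went from 10.6 CPM (9.71 to 13.5) to 5.40 CPM (4.27 to 7.70), a change of −0.95 (SE 0.14). The muscarinic receptor *Chrm2* went from 19.7 CPM (18.9 to 26.7) to 10.9 CPM (9.43 to 13.1), a change of −0.95 (SE 0.098), and the cannabinoid receptor *Cnr1* from 39.0 CPM (37.2 to 49.2) to 29.0 CPM (26.8 to 30.1), a change of −0.52 (SE 0.069). In each of these receptors no SNA sample reached a Sham sample. The alpha2C adrenoceptor *Adra2c* changed by −0.67 (SE 0.10) and the serotonin receptor *Htr1d* by −0.49 (SE 0.071). *Npy1r*, a receptor of neuropeptide Y, rose beside its ligand, from 47.8 CPM (46.6 to 54.2) to 79.8 CPM (67.2 to 87.9), a change of 0.67 (SE 0.060), and *Gabbr1* was not called (0.0044, adjusted P = 0.955). Of 22 subunits of GABA and glutamate receptors, 11 were lower and 1 higher (median −0.18). *Gria2*, the AMPA receptor subunit that blocks calcium entry, had 20.9 to 26.8 CPM in Sham (median 23.0) and 12.5 to 14.0 CPM after SNA (median 13.4), a change of −0.79 (SE 0.068, adjusted P = 2.43e-07). *Gria4* fell by 0.35 (SE 0.045), and *Gabra5* rose by 0.30 (SE 0.080).

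Some synaptic vesicle genes fell. Of 29 tested, 10 were lower and 1 higher (median −0.12), 37.9% called against 22.4% of all genes. The other 18 were not called, and 3 were higher without EE Sham replicate 2. The vesicle protein *Sv2b* went from 305 CPM (295 to 335) to 227 CPM (217 to 235), a change of −0.45 (SE 0.040), the calcium sensor *Syt2* from 330.0 CPM (306 to 367) to 252 CPM (235 to 273), a change of −0.41 (SE 0.052), and *Vamp1* from 702 CPM (679 to 725) to 606 CPM (591 to 622), a change of −0.21 (SE 0.035). *Syt4*, a synaptotagmin without calcium-triggered release, rose from 508 CPM (463 to 574) to 755 CPM (677 to 786), a change of 0.53 (SE 0.060).

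Transcription factors that hold sensory neuron identity fell. Of 24 tested, 14 were called lower and 0 higher (median −0.26). *Hoxd1*, a homeobox gene of nociceptors, had 13.7 to 16.7 CPM in Sham (median 16.0) and 7.82 to 8.99 CPM after SNA (median 8.81), a change of −0.85 (SE 0.069, adjusted P = 1.14e-07), with −0.87 within SH and −0.84 within EE. *Isl1*, which sensory neurons of all kinds express, went from 105 CPM (97.8 to 117) to 80.1 CPM (75.7 to 86.6), a change of −0.41 (SE 0.052). *Etv1*, of proprioceptors and mechanoreceptors, changed by −0.53 (SE 0.068), *Shox2* by −0.55 (SE 0.073) and *Pou4f1*, the BRN3A gene, by −0.19 (SE 0.053), and *Runx1* of nociceptors was not called (−0.14, adjusted P = 0.104). In whole ganglia, fewer cells of a type and less RNA per cell cannot be told apart, which holds for every fall described here. The 11 sensory neuron markers summed to 9605 to 10300.1 CPM in Sham and 8960 to 9680 CPM after SNA, with 5 lower, 0 higher and a median of −0.13.

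**Figure D4:**
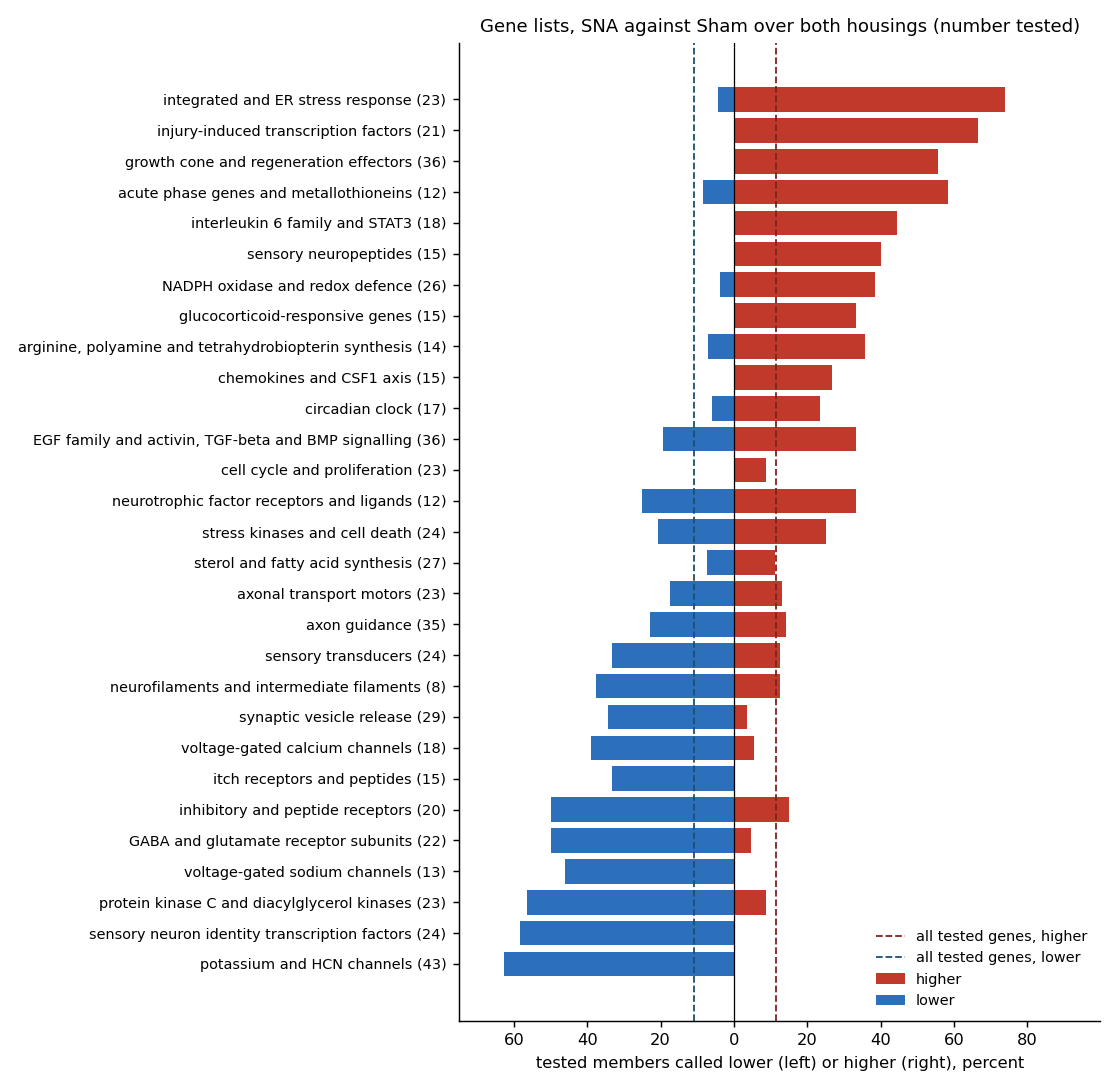
For each of 29 lists of genes by role, bars give the percentage of tested members called higher (red, to the right) or lower (blue, to the left) after SNA, with the number tested in brackets and dashed lines at the percentages over all tested genes (11.4% higher, 11.0% lower). The lists of the integrated and endoplasmic reticulum stress response, injury transcription factors and growth effectors extend to the right. Potassium channels, identity factors and inhibitory and peptide receptors extend mostly to the left. The list of stress kinases and cell death extends both ways.

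Abundant genes of the large-calibre axon fell slightly. By the difference in CPM, which favours abundant and long genes, the largest falls included *Nefm*, *Nefl*, *Nefh* and *N28178*. *Nefm*, the medium neurofilament, had 5044 to 6054 CPM in Sham (median 5457) and 4547 to 5069 CPM after SNA (median 4834), a change of −0.19 (SE 0.043). *Nefh*, the heavy neurofilament, had 2208 to 2648 CPM (median 2372) and 1824 to 2288 CPM (median 1965), a change of −0.25 (SE 0.055). *Nefl*, the light neurofilament, changed by −0.15 (SE 0.042), and its annotated exons overlap those of *Nefm*, so that the values of both are uncertain. Of 8 intermediate filament genes 3 were lower and 1 higher, the mesenchymal and glial *Vim* (0.31, SE 0.060), while peripherin, *Prph*, was not called (−0.034, adjusted P = 0.650). Kinesin, dynein and dynactin genes, listed as axonal transport motors, showed no common direction. Of 23, 3 were higher and 4 lower (median −0.027), 30.4% called against 22.4% of all genes. *Kif22*, a kinesin known from dividing cells and not from axonal transport, rose by 0.81 (SE 0.096). *Dctn1* of the dynactin complex fell by 0.19 (SE 0.048), and the abundant *Kif5a* was not called (−0.090, adjusted P = 0.246). Without SH SNA replicate 2 and EE SNA replicate 3 together, 2 motor genes were lower.

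Axon guidance genes also split, with 5 of 35 higher and 8 lower (median −0.083), 37.1% called against 22.4% of all genes. The transmembrane semaphorin *Sema6a* rose from 43.1 CPM (37.1 to 50.4) to 138 CPM (104 to 148), a change of 1.61 (SE 0.087, adjusted P = 1.08e-09), while the axonal semaphorin *Sema7a* fell from 75.7 CPM (69.6 to 78.6) to 51.9 CPM (49.7 to 54.9), a change of −0.52 (SE 0.044). *Omg*, a myelin-associated inhibitor that neurons also make, fell by 0.67 (SE 0.088), the netrin receptor *Unc5b* fell by 0.55 (SE 0.091), and the semaphorin receptor *Plxna4* rose by 0.45 (SE 0.073).

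Metabolic and redox genes gave a few strong members. Of 14 genes of arginine, polyamine and tetrahydrobiopterin synthesis, 5 were higher and 1 lower (median 0.029). *Odc1*, the first enzyme of polyamine synthesis, rose from 95.6 CPM (90.0 to 111) to 159 CPM (148 to 183), a change of 0.73 (SE 0.060), and *Azin1*, which protects it from antizyme, from 324 CPM (295 to 354) to 507 CPM (464 to 552), a change of 0.64 (SE 0.052). *Gch1*, which starts tetrahydrobiopterin synthesis, changed by 0.42 (SE 0.085). Of 26 genes of NADPH oxidase and redox defence, 10 were higher and 1 lower (median 0.24). Without EE SNA replicate 3 the median was 0.12, with 7 higher and 2 lower. *Srxn1*, sulfiredoxin, had 532 to 629.6 CPM in Sham (median 573) and 934 to 1035 CPM after SNA (median 981), a change of 0.77 (SE 0.045, adjusted P = 2.28e-09). *Txnrd1* changed by 0.35 (SE 0.043) and *Hmox1* by 0.34 (SE 0.072), and *Gclc*, which limits glutathione synthesis, by −0.31 (SE 0.048). Protein kinases C and D, diacylglycerol kinases and the diacylglycerol-regulated Ras exchange factors fell in part, with 13 of 23 lower and 2 higher (median −0.22), among them *Prkcz* (−0.37, SE 0.040), *Dgkg* (−0.59, SE 0.079), the exchange factor *Rasgrp1* (−0.52, SE 0.087) and *Dgkh* (−0.43, SE 0.092). Of 27 genes of sterol and fatty acid synthesis, 3 were higher and 2 lower (median 0.064), 18.5% of those tested and below the 22.4% of all genes. No member was higher without SH Sham replicate 2, SH SNA replicate 2 or EE SNA replicate 2, or on either FPKM scale, and 9 were with a block within each housing. *Hmgcs1* was not called (−0.045, adjusted P = 0.60).

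Acute phase genes and metallothioneins rose in 7 of 12 and fell in 1 (median 0.73). *Mt1* went from 116 CPM (78.1 to 188) to 209.8 CPM (163 to 246) and *Mt2* from 118 CPM (85.8 to 203) to 225 CPM (158 to 277), changes of 0.77 (SE 0.15) and 0.86 (SE 0.17), and the SNA and Sham ranges overlapped over both housings but not within either. *Serpina3n* changed by 0.27 (SE 0.048). *C3* was called (0.69, SE 0.22) but in 6 of the 12 fits without 1 sample, and *Lcn2* was not (0.80, adjusted P = 0.0719). The summed neutrophil markers of the 6 SNA samples reached 837 CPM and overlapped those of Sham, and the part of such cells in these genes was not tested. Of 15 glucocorticoid-responsive genes, 5 were higher and 0 lower (median 0.29), 33.3% called against 22.4% of all genes. Among those higher were *Per1* (0.36, SE 0.064) and the lipid droplet gene *Plin4* (1.05, SE 0.25), and *Fkbp5* was not called (0.27, adjusted P = 0.0609). The count of glucocorticoid-responsive genes called higher was 3 without SH Sham replicate 1, SH SNA replicate 1, SH SNA replicate 3, EE Sham replicate 1 or EE Sham replicate 3, and 8 without EE Sham replicate 2 or EE SNA replicate 2. Within SH alone 7 of these 15 genes were called higher, and within EE alone 1 (medians 0.31 and 0.20). The sign was the same in both housings in 11 of the 15, against 74.1% of all tested genes. Of 17 clock genes 4 were higher and 1 lower (median 0.025), 29.4% called against 22.4% of all genes. *Nfil3*, a repressor under the clock and a regulator of CREB targets in injured neurons, had 7.98 to 11.7 CPM in Sham (median 9.80) and 20.02 to 24.4 CPM after SNA (median 23.3), a change of 1.20 (SE 0.087), and *Bhlhe41* changed by 0.53 (SE 0.047).

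Growth factor signalling of the EGF and TGF-beta families moved both ways, with 12 of 36 higher and 7 lower (median 0.052). *Fst*, the activin antagonist follistatin, had 13.1 to 14.0 CPM in Sham (median 13.6) and 23.0 to 33.3 CPM after SNA (median 26.8), a change of 1.01 (SE 0.077). The BMP type I receptor *Acvr1* changed by 0.63 (SE 0.060) and *Tgfbr2* by 0.37 (SE 0.055). *Nrg1*, the axonal signal to Schwann cells, fell from 54.9 CPM (50.6 to 56.6) to 40.9 CPM (37.2 to 43.1), a change of −0.41 (SE 0.044). Without EE SNA replicate 3, 4 members of these families were lower. Of 23 cell cycle genes 2 were higher and 0 lower (median 0.20, or 0.091 without EE SNA replicate 3), 8.70% of those tested and below the share of all genes. They were *Pcna* (0.20, SE 0.058) and *Birc5* (0.63, SE 0.20), called in 10 and 5 of the 12 fits without 1 sample. Immediate early genes were higher in 4 of 13 and lower in 0 (median 0.15, or 0.074 without EE Sham replicate 1), among them *Dusp1* (0.56, SE 0.058). These were 30.8% of those tested, against 22.4% called and 11.4% called higher over all genes.

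Markers of macrophages and of myelinating Schwann cells rose in large part. Of 14 macrophage markers, 11 were higher and 0 lower (median 0.44), and their sum went from 150.0 to 192 CPM in Sham to 185 to 326 CPM after SNA. Within SH alone 4 were called higher and within EE alone 1, and 13 of the 14 had the same sign in both. *C1qc*, of complement, rose by 0.43 (SE 0.074) and *Tyrobp* by 0.68 (SE 0.16), while *Cx3cr1* (0.35, adjusted P = 0.125) and *Aif1* (0.064, adjusted P = 0.863) were not called. Of 13 markers of myelinating Schwann cells, 10 were higher and 0 lower (median 0.34), and the sum went from 7238 to 10163.5 CPM to 8738 to 13593 CPM. Within SH alone 1 of these Schwann cell markers was called higher and within EE alone 0, and all 13 had the same sign in both. The largest rises by the difference in CPM included *Pmp22* and *Mbp* of this list, *Srxn1* and *Apod*. *Pmp22* (0.34, SE 0.085) and *Mbp* (0.38, SE 0.11), of compact myelin, rose, and both overlapped between SNA and Sham within SH. *Apod*, apolipoprotein D of endoneurial cells, rose from 968 CPM (889 to 1096) to 1384 CPM (1061 to 1744), a change of 0.49 (SE 0.085).

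Satellite glia gave 3 higher and 1 lower of 11 markers (median 0.10, or 0.060 without EE SNA replicate 3), 36.4% called against 22.4% of all genes. *Glul*, glutamine synthetase, rose from 479 CPM (425 to 523) to 632 CPM (572 to 691), a change of 0.41 (SE 0.055), and *Gfap*, a marker of reactive glia, by 0.59 (SE 0.13) from a median of 6.66 CPM. Neutrophil markers had a median of 0.84, yet 1 of 13 was called, 7.69% against 22.4% of all genes. Without EE SNA replicate 3 the median was 0.35 with 0 called by edgeR. In the other fits without 1 sample 1 to 8 were called, and 11 with no filter on low counts. Their sum went from 85.9 to 263 CPM in Sham to 139 to 837 CPM after SNA. *S100a8* had a change of 0.96 (adjusted P = 0.0588). The 14 muscle markers had a median of 1.81 with 0 called by edgeR, and a median of 0.41 without SH SNA replicate 2. Of them, 12 were called without EE Sham replicate 2 and 14 with no filter. Higher were 1 of 6 markers of red blood cells (median 0.78), 1 of 5 of lymphocytes (median 0.45) and 1 of 11 of endothelium (median 0.17). So were 2 of 11 of fibroblasts (median 0.24), 1 of 5 of epidermis (median 0.15) and 1 of 6 of sympathetic neurons (median −0.077). In these lists 0 were lower. All these shares lie below the 22.4% of all genes called in either direction. All but that of endothelium lie above the 11.4% called higher. Without 1 sample, 0 to 5 red blood cell and 1 to 5 fibroblast markers were higher. Without SH SNA replicate 2 and EE SNA replicate 3 together, 2903 genes were called, and the macrophage and Schwann cell lists had 11 and 10 members higher. The macrophage count was 7 when SH SNA replicate 1, SH SNA replicate 3 or EE SNA replicate 3 alone was left out, and the Schwann cell count was 6 without SH SNA replicate 3. What part these cells had in any other change was not tested.

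**Figure D5:**
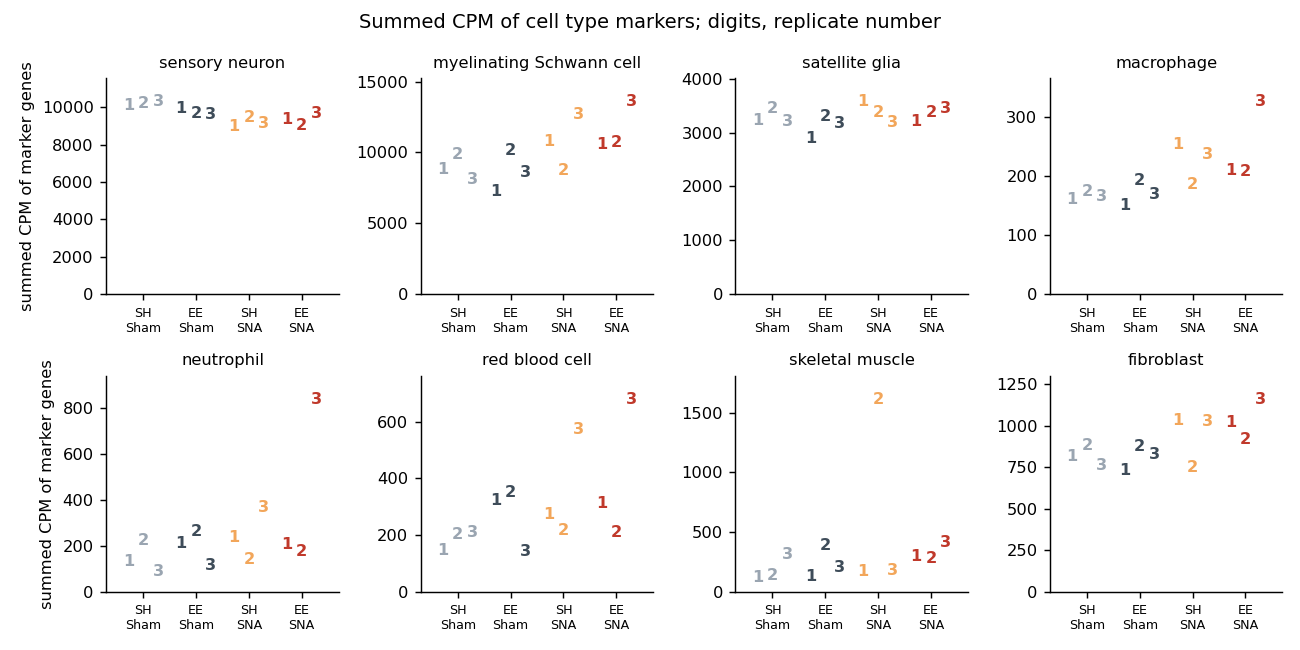
The summed CPM of the markers of 8 cell types is plotted by group, with the digit giving the replicate. Sensory neuron sums are slightly lower after SNA, macrophage and Schwann cell sums are mostly higher but overlap the Sham samples, and the neutrophil and muscle sums stand out in 1 sample each, EE SNA replicate 3 and SH SNA replicate 2.

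Whether housing changed the response to injury was tested by the interaction of housing and surgery over all 12 samples. No gene was called by edgeR's quasi-likelihood test (0%), with 423 genes (2.61%) at an unadjusted P-value under 0.05 and a smallest adjusted P of 0.458. The likelihood ratio test and DESeq2 each called 1 gene, *Zbtb16*, a zinc finger factor induced by glucocorticoids. It had 2.99 to 5.82 CPM in SH Sham, 8.53 to 15.4 CPM in SH SNA, 11.1 to 13.8 CPM in EE Sham and 8.22 to 11.0 CPM in EE SNA. It changed by 1.38 within SH and −0.38 within EE, a difference of −1.75 (adjusted P = 0.458 by the quasi-likelihood test), and was not called over both housings (0.44, adjusted P = 0.245).

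Among the genes called over both housings, those with the smallest interaction P-values were *Gpr151*, *Fam124a*, *Inmt*, *Aff1* and *Vash2*, and none passed adjustment. *Gpr151*, an orphan receptor of nociceptors, had 11.8 to 16.0 CPM in Sham (median 13.1) and 27.0 to 43.4 CPM after SNA (median 35.5), a change of 1.72 within SH and 1.07 within EE. The SNA samples were above the Sham samples in both housings. *Vash2*, a tubulin carboxypeptidase, changed by 1.18 within SH and 0.52 within EE. *Fam124a* (0.65 and 0.12) and *Aff1* (0.45 and 0.030) had their rise within SH, and *Inmt* (0.016 and 1.04) within EE, and in these 3 genes the change in the other housing was small. *Inmt* and *Aff1* were called in 4 and 8 of the 12 fits without 1 sample.

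Large changes were smaller within EE than within SH more often than small ones. Of the 142 genes with a log2 fold change of at least 1 in either direction, 108 (76.1%) had the smaller absolute change within EE, against 59.3% of all called genes and 51.6% of all tested genes. The median of the genes called higher was 0.33 within SH and 0.29 within EE, and that of the genes called lower was −0.29 and −0.28. This is a description, because the interaction called none of these genes by edgeR's quasi-likelihood test, and a sequencing batch of EE Sham cannot be told apart from housing here.

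Genes called lower had a longer median gene body than genes called higher. From the annotated start to the end, the median span was 41.8 kb for genes called lower, 23.7 kb for genes called higher and 23.0 kb for all genes tested, and the median length of merged exons was 5.21, 4.39 and 4.23 kb. The 22 genes that fell by at least 1 on the log2 scale had a median span of 23.6 kb, near that of all genes. The 120 genes with the largest rises had a median span of 11.97 kb and a median level of 2.25 CPM, against 33.9 CPM for all genes called higher and 19.03 CPM for all genes tested. These lengths are from GENCODE on GRCm38 and were known for 97.5% of the genes tested, and no test was made of them.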

How the data were processed

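Poly(A) RNA of sciatic DRG (12 samples, each pooling 2 mice) was sequenced as paired ends. Per the methods and the submitters' processing notes, the authors aligned reads to mm10 with TopHat2 2.0.12 and Bowtie2 2.2.3 and counted them per gene with HTSeq; the strand setting is not given in the sources used here. The deposited values are raw read counts per gene, and a second deposited table holds FPKM, used only as an alternative. HTSeq's 5 summary lines, which name no gene, were left out; reads on no gene made up 46.7 to 47.6% of all counted. Genes were kept by filterByExpr (at least 10 counts, 15 in total), normalised by TMM and tested by edgeR 4.0.16 (R 4.3.3) quasi-likelihood fits of surgery with housing as a term, by surgery within each housing, and by their interaction, with Benjamini-Hochberg adjustment at 0.05. Alternatives were DESeq2 1.42.0, the likelihood ratio test, library size alone, other filters, a replicate block, limma 3.58.1 on log2(FPKM + 1) and log2(FPKM + 0.1) of the deposited FPKM, and each sample left out. The scripts were tested on simulated data.

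Samples were grouped by their labels. P-values measure the spread between pooled samples. Replicate numbers did not pair Sham with SNA samples: deviations of same-numbered samples correlated between −0.235 and 0.236. Between housings they correlated between 0.111 and 0.331 in Sham and between 0.0573 and 0.126 in SNA. The genes named were the 15 largest rises and 15 largest falls among called genes averaging 1 CPM or more without overlap in either housing, the 10 smallest P-values, members of the lists by role, the 5 smallest interaction P-values among called genes, and the 5 largest rises and falls in CPM; *Zbtb16* and *Stmn2* were added after their values were seen. The genes and lists were chosen with earlier results of these data known. Some genes that these rules select are not reported here.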

Additional observations from a re-analysis of the deposited data

Results flagged for a closer look

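In each set of 6 Sham or 6 SNA samples, a highest or lowest value far from the other 5 was marked by Dixon's criterion, which chance meets in about 1 of 20 sets. The marks below were not set against the number that chance alone would give. EE SNA replicate 3 was the highest SNA sample for the summed neutrophil markers (837 CPM), *S100a8* (217 CPM), *Areg* (12.7 CPM), *Atf4* (313 CPM), *Pcna* (47.7 CPM) and *Birc5* (7.09 CPM), and the lowest for *P2rx3* (212 CPM) and *Dgkg* (9.91 CPM). SH SNA replicate 2 was the highest for the summed skeletal muscle markers (1613 CPM) and the lowest for *Rem2* (1.94 CPM). SH SNA replicate 1 was the lowest for *P2rx5* (17.1 CPM) and the highest for *Chrna5* (3.13 CPM), and SH SNA replicate 3 was the highest for *Saa2* (4.22 CPM). EE SNA replicate 2 had the most reads on genes (22871460) and the highest *Cdkl4* (2.61 CPM).

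Among the Sham samples, SH Sham replicate 3 was the highest for *Asic1* (86.3 CPM), *Ngfr* (649.5 CPM) and *Trpv2* (79.6 CPM), EE Sham replicate 2 for *Ntf3* (1.29 CPM) and EE Sham replicate 1 for *Piezo2* (388 CPM), and EE Sham replicate 1 was the lowest for *Pcna* (32.0 CPM).

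The effect of injury on *Zbtb16* differed between the housings by −1.75 on the log2 scale (EE minus SH). All 3 SH SNA samples were above all 3 SH Sham samples, and all 3 EE SNA samples were below all 3 EE Sham samples. The difference did not pass edgeR's quasi-likelihood test (adjusted P = 0.458).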

How the results depend on the processing

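Over both housings, the count of genes called lay between 3362 (log2(FPKM + 1)) and 4077 (no filter on low counts) under the alternatives that kept all samples, and between 2962 and 3770 when 1 sample was left out. Genes with a log2 fold change of at least 1 numbered 328 with no filter, 69 with at least 10 counts in every sample, 32 on log2(FPKM + 1), 88 on log2(FPKM + 0.1) and 120 to 191 without 1 sample, against 142. With the replicate number as a block the count was 3920 over both housings, 1924 within SH and 887 within EE, and 4090 with a block within each housing. Within SH, leaving out 1 sample gave 1207 to 1683 genes, 674 to 989 higher and 524 to 696 lower. Within EE, it gave 361 to 1082 genes, 198 to 572 higher and 163 to 510 lower. The count within EE was 1303 (662 higher, 641 lower) by the likelihood ratio test, 1694 (940 and 754) with no filter, 472 (270 and 202) on log2(FPKM + 1), 462 (263 and 199) on log2(FPKM + 0.1), 1278 (657 and 621) with all 12 samples in one fit, and 497 (212 lower) without EE SNA replicate 3, with SH SNA replicate 2 left out as well, an alternative chosen after seeing the data. The interaction called 1 gene by the likelihood ratio test, 1 by DESeq2 and 77 with no filter, against 0. The causes of these differences were not tested. Of the 167 named genes called over both housings, 155 were called in all 12 fits without 1 sample. Besides those given with the results, *Nefl* was not called without SH SNA replicate 3 and *Ngfr* without SH SNA replicate 1. No named gene reversed its direction past the threshold under any alternative, the replicate block took the call from none of them, and a block within each housing from 3, *Birc5*, *Grp* and *Inmt*. List medians closer to 0 than 0.1 each changed sign or moved by over 1.5 times without at least 1 of the samples, except that of the intermediate filaments. Low counts limit genes such as *Abra* and *Lce1g*, and 3 pooled samples a group limit the values within a housing.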
